A study of Mus musculus with 6 samples.

Results

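The genes described here are the matrix metalloproteinases (MMPs), the secreted ADAMTS proteases, the ADAMTS-like proteins that resemble them without a protease domain, and the tissue inhibitors of metalloproteinases (TIMPs). They were taken by name from the deposited gene table: 49 of its 22487 genes carried an Mmp, Adamts, Adamtsl or Timp name with a number, and all 49 had a count in at least 1 library. The set held 21 MMPs, 19 ADAMTS proteases, 5 ADAMTS-like genes and 4 TIMPs. In the table's own annotation the 40 proteases carry the term metalloendopeptidase activity and the 4 TIMPs that of its inhibitors, the ADAMTS-like genes carry neither, and Adamts1 is the member with the term ovulation. RNA of ovarian tissue from adult female rats was sequenced in 6 libraries, 3 of untreated controls and 3 of animals that had been exposed to fine airborne particles (PM2.5) of a cowshed. The genotype label was WT in both groups, and every title gives 30 days, with no word on what is counted. The labels used here give no dose or route of exposure and do not tie a group's 3 libraries to single animals, so every p-value measures the spread between these libraries, which may be technical. The organism field names the mouse, but rat is the species of the titles and of all 22487 Ensembl identifiers in the table.

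Matrix proteases cut collagens, proteoglycans and other proteins of the tissue scaffold, and most are made as inactive precursors that need to be cleaved or unfolded before they act. TIMPs bind the active site of MMPs, and Timp3 also inhibits several ADAMTS proteases. In the ovary this system opens the follicle wall at ovulation, remodels the tissue as a corpus luteum forms and takes part in its regression. Adamts1 is known as a progesterone-receptor-dependent gene of ovulating granulosa cells that cleaves versican, and Timp1 as an inhibitor induced around ovulation and abundant in the corpus luteum.

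The libraries held between 47662338 and 60749578 counts, and 15303 genes whose mean reached 0.5 FPKM (fragments per kilobase of gene and per library total, the authors' values) were tested. The members took 0.191% to 0.197% of all counts in the controls and 0.173% to 0.183% in the PM2.5 libraries. Defining markers of granulosa, theca, luteal and oocyte cells were present in every library. Their make-up varied within groups: summed CPM (counts per library total after TMM scaling) of 6 granulosa markers was 1379 to 6803 for controls and 2875 to 8537 for PM2.5, and that of 5 luteal markers 6674 to 14708 and 4968 to 16670. Summed T and NK cell markers did not overlap between groups, at 20.6 to 48.8 CPM for controls and 6.01 to 9.26 CPM for PM2.5, nor did erythroid markers, at 657 to 711 and 2564 to 4032 CPM. The former sum rested on Gzmb, at 12.0, 20.4 and 43.0 CPM in the controls and 0.858, 2.42 and 0.967 CPM in PM2.5, while Cd3e, Cd3g, Cd2 and Nkg7 overlapped between groups. The part of such cells in the differences described here was not tested. In bulk tissue, fewer cells of a type and less RNA per cell cannot be told apart.

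The inhibitor Timp1 and the protease Adamts10 were the most abundant members per gene length by the mean over the 6 libraries, although Mmp7, at 81.3 FPKM, exceeded both in PM2.5 library 1. Timp1 had 218, 169 and 206 FPKM in the 3 controls and 64.1, 144 and 117 FPKM in the 3 PM2.5 libraries (values are given in the order of replicates 1 to 3 throughout). Adamts10, which acts on microfibrils of fibrillin, had 133, 81.5 and 133 FPKM in the controls and 76.4, 124 and 115 FPKM in PM2.5. Adamts10 led its family in every library, with 40.9% to 61.7% of the summed ADAMTS FPKM. Timp1 made up 42.9% to 90.5% of the summed TIMP FPKM and led except in PM2.5 library 1. Mmp11, Timp3, Adamts1 and Mmp23 followed with means over the 6 libraries of 38.7, 34.8, 33.8 and 24.6 FPKM, and the library ranges of these 4 genes overlapped one another. Mmp11 shares 1928 bases with Chchd10 on the opposite strand, whose mean was 192 FPKM. The count of Mmp11 is therefore uncertain where strand was not used. A mean of at least 10 FPKM was reached by 12 of the 49 members. At the other end, 13 members had a mean below 0.5 FPKM and were not tested. Mmp1 and Mmp20 were detected in 2 libraries each, with at most 8 counts.

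**Figure D1:**
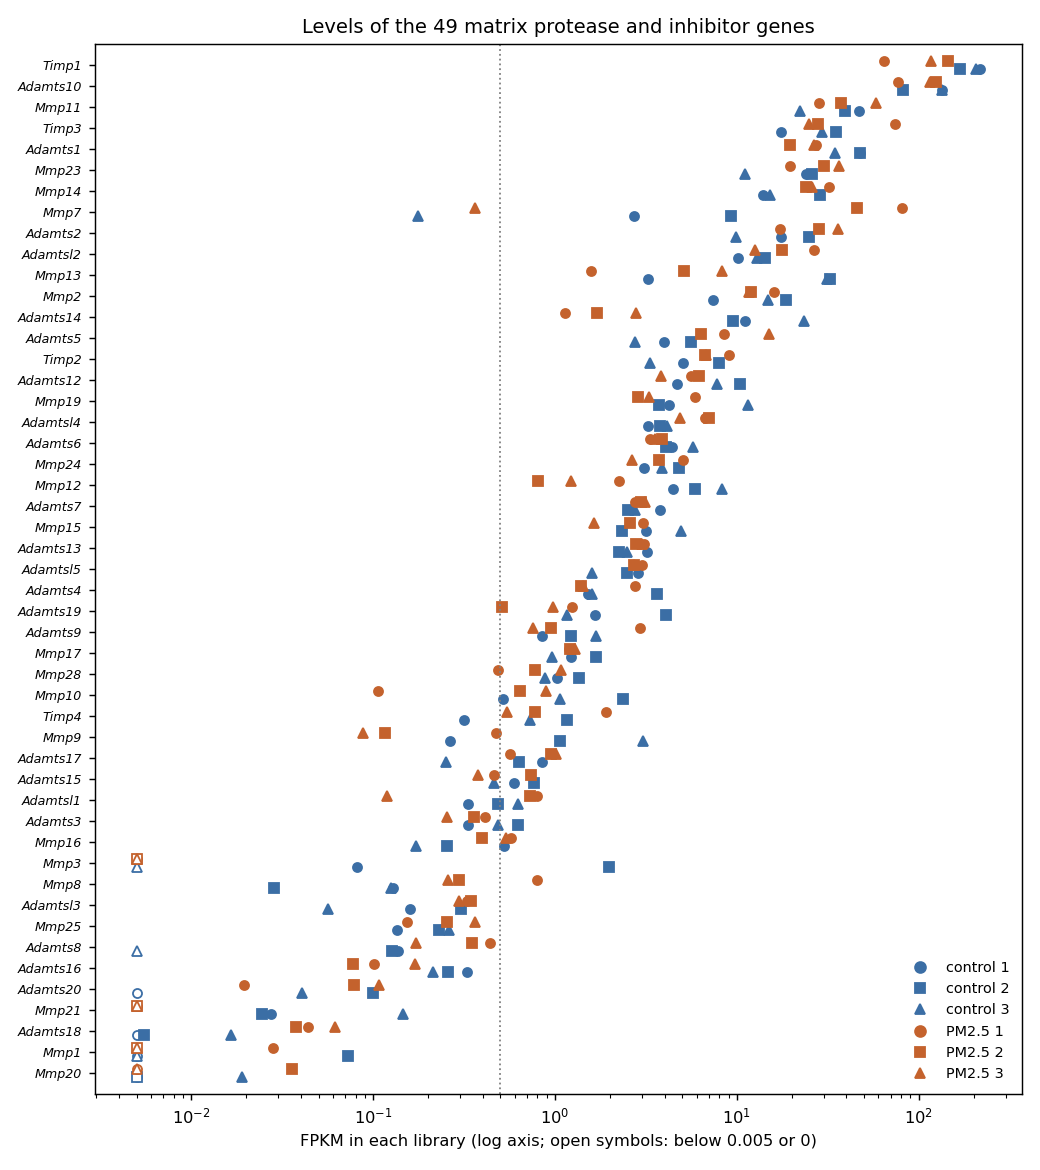
FPKM of each of the 49 genes (rows, ordered by mean) in each of the 6 libraries, on a log axis; blue symbols are controls, orange symbols PM2.5, and the dotted line marks the mean of 0.5 FPKM needed for testing. Timp1 and Adamts10 lie at the top, 13 genes have means below the line, and the symbols of Mmp7 spread over the widest range.

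The comparison asks whether exposure went with a shift in this protease system. None of the 36 tested members differed at an adjusted p under 0.05 in the quasi-likelihood test of edgeR, where 0.928% of all tested genes did (0.19% higher and 0.738% lower). Without the adjustment 9 members (25%) had a p under 0.05, 2 higher and 7 lower in PM2.5, against 20.9% of all tested genes (9.17% higher and 11.7% lower). The groups did not overlap in 7 members (19.4%), 2 higher and 5 lower, a share below the 27.2% of all tested genes (12.1% higher and 15.2% lower). DESeq2, an alternative test, called 6 members (16.7%), with Adamts14, Mmp12, Adamts1 and Mmp13 lower and Adamts5 and Adamtsl4 higher, where it called 11.5% of all tested genes (4.78% higher and 6.77% lower). The median log2 fold change was -0.04 over the members, with 20 of 36 negative, and 0.0041 over all tested genes, with 49.6% negative. These shares lie near the background and say nothing particular about the set as a whole. The differences described next belong to single genes, and none of them passed the edgeR threshold.

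**Figure D2:**
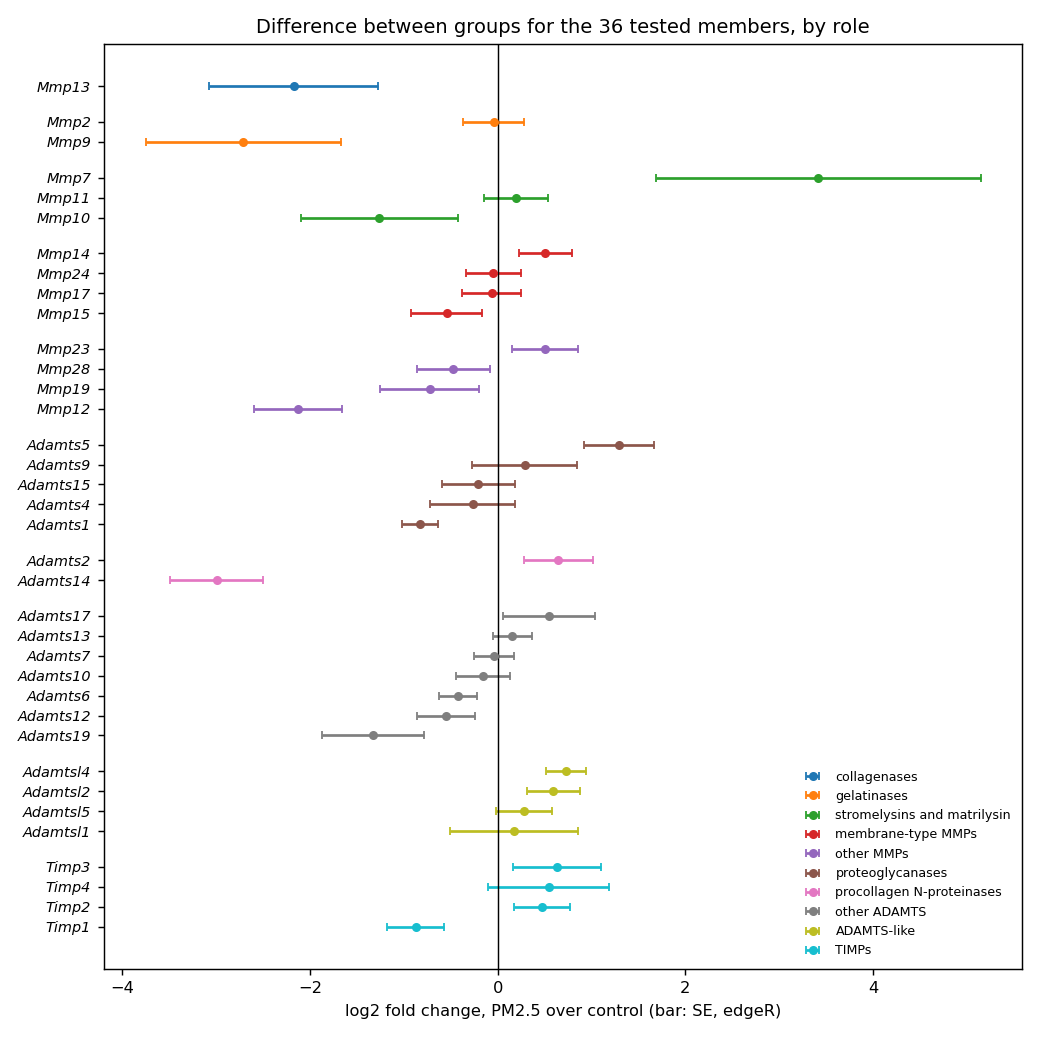
Log2 fold change (PM2.5 over control, x axis) with its SE for the 36 tested members, grouped by role on the y axis. Adamts14, Mmp9, Mmp13 and Mmp12 lie farthest to the left and Mmp7 farthest to the right with the widest error, and all 4 ADAMTS-like genes lie right of 0.

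Among the procollagen N-proteinases, which trim the amino-terminal propeptide from fibrillar procollagens, Adamts14 showed the largest difference between groups of any member relative to its error. Its level was 47.3, 39.2 and 105 CPM in the 3 controls and 4.86, 7.23 and 11.9 CPM in the 3 exposed ones. The highest PM2.5 library was thus below the lowest control, although control 3 stood far above the other controls. The mean was 63.7 ± 35.7 CPM (SD, n = 3) in the controls and 8.01 ± 3.59 CPM (n = 3) in PM2.5, a log2 fold change of -2.99 ± 0.50 (SE), or 7.96-fold lower (edgeR adjusted p = 0.0521). The adjusted p was 7.45e-08 with DESeq2 and between 0.0407 and 0.0495 with limma, with scaling by library size alone or with a stricter filter. With a library left out it was between 0.0706 and 0.249. Adamts14 (ENSRNOG00000000563) lies on the minus strand of chromosome 20 from 29144354 to 29219866, by the positions of the deposited table (genome build: not given in the sources used here).

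The related enzyme Adamts2 did not share this difference. It had 76.8, 105 and 45.1 CPM in the controls and 74.8, 123 and 156 CPM in PM2.5, with overlapping groups and a log2 fold change of 0.65 ± 0.37 (edgeR adjusted p = 0.358). The ratio of Adamts14 to Adamts2 in FPKM was 0.631, 0.383 and 2.38 in the controls and 0.0663, 0.0598 and 0.0781 in PM2.5. The 2 groups of ratios did not overlap, and no test was made because the pair was chosen after its values were seen. Adamts3, the remaining enzyme of this kind, had 64 to 155 counts per library and was not tested.

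The proteoglycanases cut versican, aggrecan and related proteoglycans, and 2 neighbours among them lay in opposite directions. Adamts1 had 258, 248 and 197 CPM in the 3 controls and 147, 106 and 143 CPM in the 3 exposed ones, so every PM2.5 library was below every control. Its log2 fold change was -0.83 ± 0.19, or 1.77-fold lower, from 234 ± 33.1 to 132 ± 22.9 CPM (SD, n = 3 each), with an adjusted p of 0.0964 in edgeR and 0.00462 in DESeq2. With any library left out the log2 fold change stayed between -0.93 and -0.69, and the adjusted p was between 0.13 and 0.33. Adamts5, a strong aggrecanase, had 17.1, 23.0 and 12.4 CPM in the controls and 36.6, 27.4 and 64.7 CPM in PM2.5. These groups did not overlap either, with PM2.5 library 3 the highest, and the log2 fold change was 1.29 ± 0.37, or 2.45-fold higher (adjusted p = 0.136 in edgeR and 0.0158 in DESeq2). Adamts5 was lowest in control 3 and highest in PM2.5 library 3, as was the summed level of the granulosa markers. Of those markers Inha, Fshr and Amh had these same lowest and highest libraries, while Cyp19a1, Inhbb and Foxl2 were highest elsewhere. The part of those cells in the Adamts5 values was not tested.

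Adamts1 lies on the minus strand of chromosome 11 from 24931761 to 24941103 and Adamts5 on the same strand from 25000637 to 25047205, a gap of 59.5 kb. The ratio of Adamts5 to Adamts1 in FPKM was 0.0839, 0.117 and 0.0798 in the controls and 0.314, 0.328 and 0.570 in PM2.5. These ratios could not overlap between groups, since Adamts1 was lower and Adamts5 higher in every PM2.5 library, and no test was made. Adamts1 remained the more abundant of the pair in every library. Adamts4, an aggrecanase also known from ovulating follicles, had 6.34, 14.6 and 6.91 CPM in the controls and 11.4, 5.80 and 5.92 CPM in PM2.5. Its groups overlapped, since 1 library of each group stood above the rest, and the log2 fold change was -0.27 ± 0.45 (edgeR adjusted p = 0.77). Without control 2 that value was 0.22, on the other side of 0. Adamts4 lies within Ppox on the opposite strand of the table, whose mean was 21.9 FPKM against 2.05 for Adamts4, so its count is uncertain where strand was not used. Adamts9 at 0.29 ± 0.56 (-0.57 without PM2.5 library 1) and Adamts15 at -0.21 ± 0.39 did not pass, and Adamts8 and Adamts20, with at most 86 and 36 counts, were not tested.

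**Figure D3:**
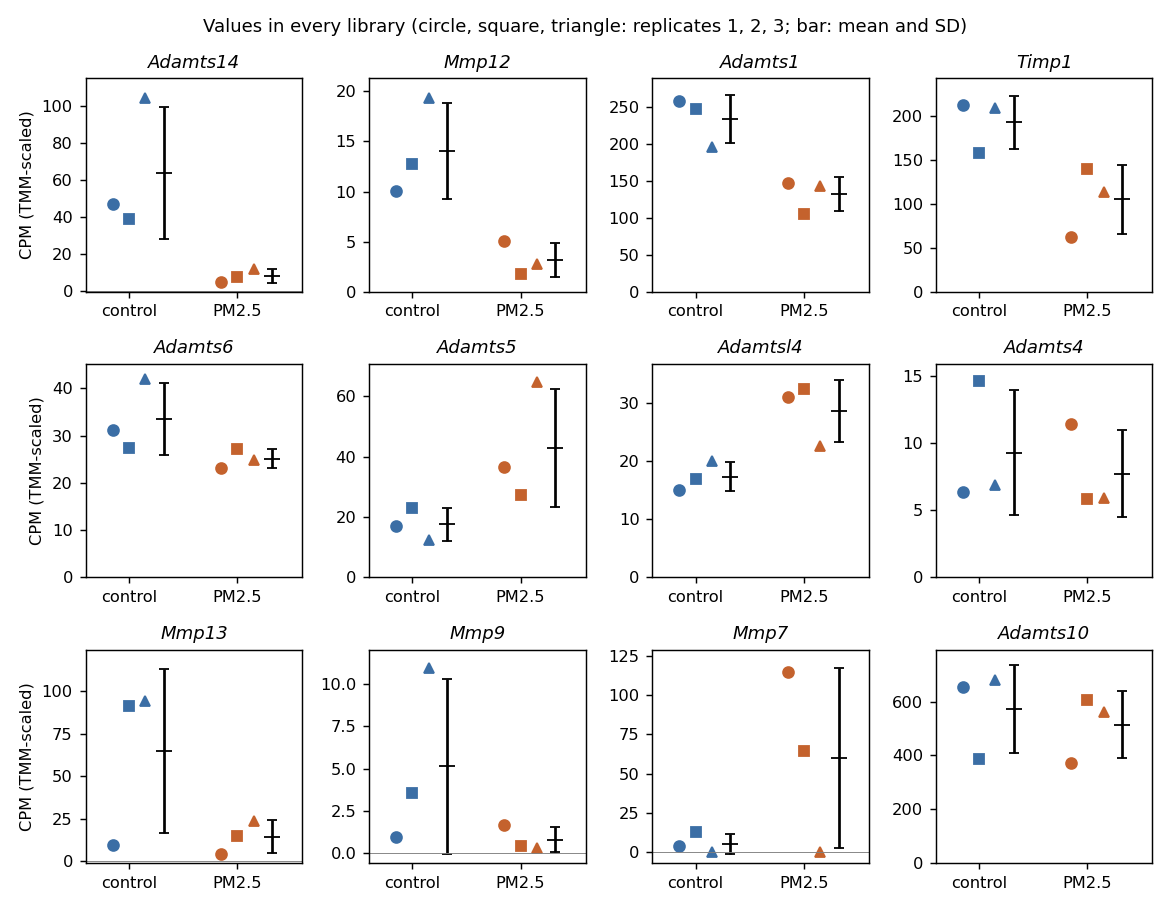
CPM of 12 members (one panel each, y axis from 0) in every library, with circles, squares and triangles for replicates 1, 2 and 3, and the mean and SD beside each group. Adamts14, Mmp12, Adamts1, Timp1 and Adamts6 lie below all controls in each exposed library and Adamts5 and Adamtsl4 higher, while the groups of the other 5 genes overlap.

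Of the 4 inhibitors, Timp1 was lower in PM2.5 and the other 3 had positive fold changes. Timp1 had 213, 158 and 209 CPM in the 3 controls and 62.4, 140 and 114 CPM in the 3 exposed ones. All 3 PM2.5 libraries lay below the lowest control, and PM2.5 library 1 was the lowest. The log2 fold change was -0.87 ± 0.30, or 1.83-fold lower (adjusted p = 0.177 in edgeR and 0.0691 in DESeq2). Timp3, which binds to the matrix, had 34.0, 65.9 and 59.4 CPM in the controls and 144, 54.3 and 48.2 CPM in PM2.5. Only PM2.5 library 1 was above the controls, and without it the log2 fold change of 0.63 ± 0.47 became -0.05.

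In PM2.5 library 1 Timp3, at 74.3 FPKM, exceeded Timp1, at 64.1 FPKM. In the other 5 libraries Timp1 was between 4.73 and 12.5 times as high as Timp3 in FPKM. PM2.5 library 1 also had the highest summed level of the luteal markers, with Cyp11a1 and Scarb1 highest there, at 6988 and 4410 CPM. Star and Ptgfr were highest in control 3 and Lhcgr in control 2. The part of luteal cells in the inhibitor levels of PM2.5 library 1 was not tested. Timp2, which also helps Mmp14 to activate Mmp2, had a log2 fold change of 0.47 ± 0.29. The corresponding value for Timp4, the least abundant inhibitor, was 0.54 ± 0.64, and -0.15 without PM2.5 library 1. Summed over the 4 inhibitors, the level was 241, 213 and 239 FPKM in the controls and 149, 180 and 149 FPKM in PM2.5. Timp1 made up most of that sum in every library but PM2.5 library 1. Timp1 lies on the minus strand of chromosome X from 1212972 to 1217664. All 4 TIMP genes lie within the span of another gene of the table, Timp1 in Syn1, Timp3 in Syn3 and Timp4 in Syn2 on the opposite strand, and Timp2 in Cant1 on the same strand. Syn1 had a mean of 0.382 FPKM against 153 FPKM for Timp1, whereas Cant1, at 14.2 FPKM, was above Timp2, at 6.47 FPKM.

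Mmp12, the elastase made mainly by macrophages, had the smallest unadjusted p of the MMPs. It had 10.1, 12.7 and 19.4 CPM in the 3 controls and 5.09, 1.81 and 2.74 CPM in the 3 exposed ones. The groups did not overlap, and the means were 14.1 ± 4.79 and 3.21 ± 1.69 CPM (SD, n = 3 each). The log2 fold change was -2.13 ± 0.47, or 4.38-fold lower, with an adjusted p of 0.0884 in edgeR and 0.000465 in DESeq2. The summed level of 5 macrophage markers, Cd68, Csf1r, Cd163, Mrc1 and C1qa, overlapped between groups, at 90.8 to 111 CPM for controls and 81.6 to 132 CPM for PM2.5. Of the 5, 2 had a positive fold change. None of these markers was at 0 in all libraries. The part of macrophages in the Mmp12 values was not tested.

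Mmp13 and Mmp9 also had large fold changes but varied as much within the groups as between them. The collagenase Mmp13 had 9.49, 91.4 and 94.2 CPM in the controls and 4.58, 14.9 and 23.9 CPM in PM2.5. Control 1 lay among the PM2.5 libraries, and the log2 fold change was -2.17 ± 0.90 (adjusted p = 0.234 in edgeR and 0.0477 in DESeq2). The gelatinase Mmp9 had 0.920, 3.56 and 10.9 CPM in the controls and 1.64, 0.412 and 0.302 CPM in PM2.5, a log2 fold change of -2.71 ± 1.04 (edgeR adjusted p = 0.21). That value was -3.83 without PM2.5 library 1 and -0.85 with limma on log2(FPKM + 1), and without control 3 Mmp9 was too low to be tested. Again control 1 lay within the PM2.5 range, and control 3 carried most of the control mean. Neutrophils store Mmp8, Mmp9 and Mmp25. The summed level of 5 neutrophil markers was low, at 2.75 to 3.79 CPM for controls and 3.12 to 6.91 CPM for PM2.5. Mmp2, the more abundant gelatinase, had 26.1, 63.2 and 54.2 CPM in the controls and 56.1, 42.2 and 41.2 CPM in PM2.5. Its log2 fold change of -0.04 ± 0.33 changed sign in 7 of 15 alternatives.

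Mmp7, matrilysin, is a protease of glandular epithelia, and its level depended on the library more than that of any other member. It had 3.85, 12.7 and 0.262 CPM in the 3 controls and 114, 64.4 and 0.524 CPM in the 3 exposed ones. PM2.5 libraries 1 and 2 stood above all controls, while PM2.5 library 3 was below controls 1 and 2. The log2 fold change of 3.42 ± 1.73 did not pass (edgeR adjusted p = 0.307). It moved to 4.86 when control 2 was left out and to 2.54 when PM2.5 library 1 was. The ratio of the highest to the lowest library was 48.3 within the controls and 218 within PM2.5, against a median of 2.00 and 2.01 over the 36 tested members.

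Some genes of other cell types were high in the same libraries, PM2.5 libraries 1 and 2, and those named here were chosen for that pattern after their values were seen. Meltf, which encodes the membrane protein melanotransferrin, reached 74.2 and 30.2 CPM there and ranged from 0.242 to 8.92 CPM elsewhere. The epithelial keratin Krt7 had 32.1 and 51.5 CPM in those libraries and between 1.82 and 14.0 CPM in the others, and the adipocyte gene Adipoq 33.3 and 33.8 CPM against 0.929 to 2.60 CPM. Other markers of the same lists did not follow. Plin1 peaked in control 3 at 1.88 CPM, Upk3b and the oviduct markers Cdh1 and Dnah9 were highest in control 2, Lrrn4 was highest in PM2.5 library 3, and Msln was high in PM2.5 library 1 alone. Of the 5 listed oviduct markers 3 were found in the table, all 3 with a positive fold change, and their sum was 8.64 to 99.2 CPM in the controls and 50.0 to 150 CPM in PM2.5. For the surface epithelium 4 of 5 markers were found, again all with a positive fold change, with sums of 11.9 to 37.0 and 33.2 to 69.4 CPM. The 5 adipocyte markers summed to 8.99 to 15.5 and 17.3 to 58.4 CPM, with Adipoq the largest part in PM2.5 libraries 1 and 2, and 2 of the 3 tested had a positive fold change. The 5 smooth muscle and pericyte markers summed to 384 to 726 and 512 to 2781 CPM, with 4 of 5 positive and Rgs5 negative. None of the markers found was at 0 in all libraries. The part of such tissue in the Mmp7 values was not tested.

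**Figure D4:**
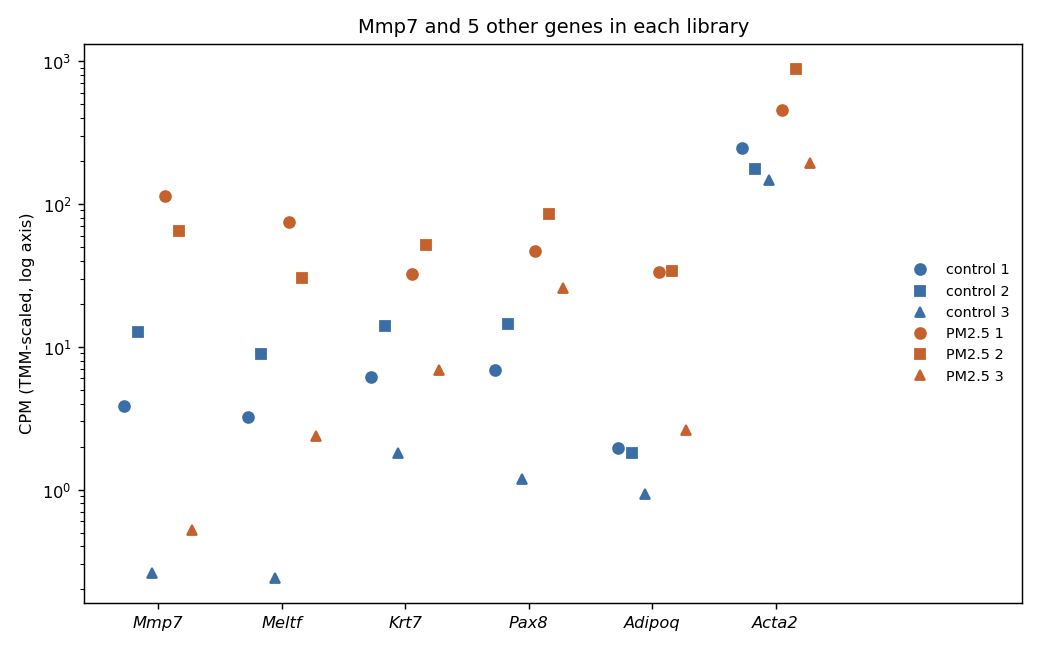
CPM (log axis) of Mmp7, Meltf, the epithelial genes Krt7 and Pax8, the adipocyte gene Adipoq and the smooth muscle gene Acta2 in each library; blue symbols are controls and orange symbols PM2.5. The genes were chosen for their likeness to Mmp7, PM2.5 libraries 1 and 2 are the highest in all 6, and in Mmp7 the triangle of PM2.5 library 3, at 0.524 CPM, lies near that of control 3.

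A group of the MMP genes sits side by side. Mmp13, Mmp12, Mmp3, Mmp1, Mmp10, Mmp8, Mmp20 and Mmp7 fill 358 kb of chromosome 8, from 4497960 to 4855902, with no other gene of the table between them. Of these 8 genes 4 were tested, and 3 had negative fold changes and Mmp7 a positive one. Mmp10, stromelysin-2, had a log2 fold change of -1.26 ± 0.84, with control 2 highest at 4.40 CPM and PM2.5 library 1 lowest at 0.210 CPM. Without control 2 that value was -0.58. Mmp3, stromelysin-1, had 200 counts in control 2, 8 in control 1 and 0 in the other 4 libraries. A count of 0 allows up to 3 counts, or 0.0494 to 0.0606 CPM in those libraries, counting error only. Mmp8, the neutrophil collagenase, had 14, 4 and 15 counts in the controls and 95, 41 and 30 counts in PM2.5. It was higher in every PM2.5 library, at levels too low for testing. In PM2.5 libraries 1 and 2, Mmp7 and Mmp8 were above all controls and Mmp12 was below them. None of the 4 tested genes passed in edgeR, and a common regulation of the stretch was not tested.

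The groups of the remaining tested MMPs overlapped. Mmp11, stromelysin-3, had 123, 100 and 61.3 CPM in the controls and 73.9, 97.8 and 153 CPM in PM2.5, with a log2 fold change of 0.19 ± 0.34. Mmp23 had 37.7, 39.3 and 18.1 CPM in the controls and 30.6, 47.4 and 57.1 CPM in PM2.5, with 0.51 ± 0.35. Both genes, like Adamts2, were lowest in control 3 and highest in PM2.5 library 3. So was the summed level of the granulosa markers, at 1379 and 8537 CPM, of which Inha gave 886 and 6152 CPM. Fshr and Amh shared these extremes, while Cyp19a1 was highest in control 2, Inhbb in control 1 and Foxl2 in PM2.5 library 1. The part of those cells in the values was not tested. Of the membrane-type MMPs, which act at the cell surface, Mmp14 had 42.4, 84.5 and 48.4 CPM in the controls and 97.2, 73.1 and 79.1 CPM in PM2.5. Its log2 fold change was 0.51 ± 0.28, and control 2 lay within the PM2.5 range. Without control 2 the value was 0.87 (edgeR adjusted p = 0.0885). Mmp15 at -0.54 ± 0.38, Mmp17 at -0.07 ± 0.31 and Mmp24 at -0.05 ± 0.29 did not pass, nor did Mmp19 at -0.72 ± 0.53 and Mmp28 at -0.47 ± 0.39. Mmp19 was high in control 3 alone, at 33.5 CPM against 7.99 to 16.4 CPM in the other libraries, and without that library its log2 fold change was 0.03. Mmp16, Mmp21 and Mmp25 were not tested, and Mmp21 had 3, 3 and 16 counts in the controls and 0 in PM2.5.

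Among the tested genes of the remaining ADAMTS group, Adamts6 was the one whose groups did not overlap. It had 31.1, 27.4 and 42.0 CPM in the controls and 23.2, 27.2 and 24.8 CPM in PM2.5, where control 2 and PM2.5 library 2 nearly met. The log2 fold change was -0.42 ± 0.20 (edgeR adjusted p = 0.286). Adamts19, which is linked to heart valve development, had 8.16, 19.2 and 5.96 CPM in the controls and 6.03, 2.504 and 4.79 CPM in PM2.5, a log2 fold change of -1.32 ± 0.54 (edgeR adjusted p = 0.231). Its groups overlapped by the narrow margin between control 3 and PM2.5 library 1, and without control 2 the log2 fold change was -0.67. The abundant Adamts10 had 655, 385 and 681 CPM in the controls and 373, 607 and 561 CPM in PM2.5, with a log2 fold change of -0.16 ± 0.29. Adamts13, the protease that trims von Willebrand factor, had 0.16 ± 0.21, and its PM2.5 libraries, from 17.6 to 19.5 CPM, lay within the control range. Adamts7 at -0.04 ± 0.21, Adamts12 at -0.55 ± 0.31 and Adamts17 at 0.55 ± 0.49 did not pass. Adamts16 and Adamts18 were not tested. Their groups did not overlap at these low counts, with Adamts16 at 1.84, 1.39 and 1.23 CPM in the controls and 0.572, 0.445 and 0.947 CPM in PM2.5, and Adamts18 at no more than 14 counts in any library and higher in PM2.5.

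The ADAMTS-like proteins have no protease activity, and some of them bind fibrillin microfibrils. All 4 tested had positive fold changes, and Adamtsl4 was the one whose groups did not overlap. Adamtsl4 had 15.0, 16.9 and 19.9 CPM in the controls and 31.0, 32.3 and 22.5 CPM in PM2.5, a log2 fold change of 0.73 ± 0.21, or 1.66-fold higher (adjusted p = 0.138 in edgeR and 0.0298 in DESeq2). PM2.5 library 3 was the closest to the controls. Adamtsl2 had 41.4, 56.3 and 54.8 CPM in the controls and 108, 71.7 and 50.8 CPM in PM2.5, with 0.59 ± 0.28. Adamtsl5 at 0.28 ± 0.30 and Adamtsl1 at 0.17 ± 0.68 did not pass, and the sign of Adamtsl1 turned in 3 of 11 alternatives. The span of Adamtsl1 shares 149358 bases with Sh3gl2 on the same strand, whose mean was 7.75 FPKM against 0.513 FPKM for Adamtsl1. Adamtsl3, with 24 to 170 counts, was not tested. Its PM2.5 libraries lay just above the controls, at 2.40 to 2.80 CPM against 0.485 to 2.37 CPM.

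Summed by family, the MMPs had 117, 180 and 130 FPKM in the controls and 198, 168 and 155 FPKM in PM2.5, with Mmp7 adding 81.3 and 45.7 FPKM in PM2.5 libraries 1 and 2. The ADAMTS proteases summed to 236, 199 and 229 FPKM in the controls and 154, 201 and 214 FPKM in PM2.5. Both sums overlapped between groups, while the TIMP sum did not.

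Other genes of matrix proteolysis were read from the same fit, from a list of 62 of which 56 were tested. Of these, 3 fell and none rose at an adjusted p under 0.05 in edgeR, or 5.36% lower against 0.738% of all tested genes, and the median log2 fold change was 0.02. Without the adjustment 18 genes (32.1%) had a p under 0.05 in edgeR, 8 higher and 10 lower, against 20.9% of all tested genes. The list was chosen with earlier results of these data known, so these shares are no measure of enrichment. Sdc1, the surface proteoglycan syndecan-1 that MMPs can shed, had 595 ± 117 CPM in the controls and fell to 160 ± 7.57 CPM (SD, n = 3 each; log2 fold change -1.90 ± 0.19, edgeR adjusted p = 0.0434). Fos, a subunit of the AP-1 factor that drives several MMP genes, fell from 171 ± 100 to 24.1 ± 2.53 CPM (-2.82 ± 0.40, edgeR adjusted p = 0.0434). Serpinf2, the plasmin inhibitor, fell from 4.71 ± 2.90 to 0.329 ± 0.104 CPM (-3.83 ± 0.61, edgeR adjusted p = 0.0486). These calls rest on all 6 libraries: with a library left out none of the 3 was called, except Fos without control 2. Serpinf2 was also not called by limma or under any other filter, nor Fos without a filter.

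In the plasminogen system, which can activate MMP precursors, the urokinase receptor gene Plaur had 26.7, 48.0 and 47.6 CPM in the controls and 8.26, 8.39 and 14.4 CPM in PM2.5 (edgeR adjusted p = 0.0555). Every PM2.5 library was below every control, and the adjusted p of Plaur was 4.95e-06 in DESeq2. The urokinase gene Plau had a log2 fold change of -0.40 ± 0.20. Among other proteases the values were -2.54 ± 0.49 for Adam12, 0.81 ± 0.23 for Adam17, the sheddase of TNF, 0.49 ± 0.16 for Adam15 and -1.41 ± 0.49 for Adam19. None passed in edgeR, while DESeq2 called Adam12 (adjusted p = 1.07e-05), Adam17 (0.0214) and Adam19 (0.044).

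Of the substrates, aggrecan (Acan) had a log2 fold change of -2.32 ± 0.58, the cartilage protein Comp -2.51 ± 0.50, brevican (Bcan) 4.50 ± 0.88 and fibrillin-2 (Fbn2) 1.53 ± 0.43, with groups that did not overlap. None of the 4 passed in edgeR and DESeq2 called each of them, with adjusted p-values of 0.00223, 4.81e-05, 4.22e-07 and 0.0106. The Adamts1 substrate versican (Vcan) had 271, 368 and 161 CPM in the controls and 240, 482 and 577 CPM in PM2.5, with overlapping groups. The inhibitor Reck, which is anchored in the cell membrane, was at 0.73 ± 0.23 and the clearance receptor Lrp1 at 0.50 ± 0.17, neither past the threshold in edgeR and both called by DESeq2 (adjusted p = 0.0474 and 0.0423). A2m, a general protease trap, had 921 CPM in PM2.5 library 1 against 73.5 to 247 CPM elsewhere. Of the transcription factors, Cebpb, needed for ovulation, was at -1.19 ± 0.28, Nr5a2 at 0.63 ± 0.17 and Ets1 at -0.40 ± 0.18. These did not pass in edgeR, and DESeq2 called Cebpb (adjusted p = 0.00257) and Nr5a2 (0.0242). The progesterone receptor gene Pgr had 0.962, 8.02 and 0.666 CPM in the controls and 2.77, 2.16 and 0.564 CPM in PM2.5. Control 2, which had the highest Pgr, also had the highest Adamts4, Mmp3 and Mmp10 of the 6 libraries, whereas Adamts1 was highest in control 1.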

How the data were processed

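Per the labels' protocols, Trizol RNA was poly(A)-selected, copied with dUTP and sequenced as paired ends. HISAT2 2.2.1, StringTie 2.1.6, edgeR, DESeq2 and cutadapt 1.9 appear in the submitters' processing notes with no role stated. Build and strand setting: not given in the sources used here. Raw whole counts per gene were deposited by the authors. The FPKM columns are the authors' values per kilobase and library total, used for levels between genes and for the filter. The mouse reference was not used.

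Counts of genes whose mean over the 6 libraries reached 0.5 FPKM were fitted with edgeR 4.0.16 in R 4.3.3 (TMM factors, glmQLFit, glmQLFTest, no block), two-sided, with Benjamini-Hochberg adjustment at 0.05. The SE is the size of the log2 fold change divided by the square root of F. DESeq2 1.42.0, limma 3.58.1, other scalings and filters, a block on replicate number and fits that left out each library were alternatives. The pipeline was tested on simulated data. No library repeated another (chi-square per degree of freedom of 102 or more).

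The members and lists were chosen with earlier results of these data known. Values per library are given for Adamts1, Adamts4 and Timp1, tested members whose groups did not overlap and the 6 most abundant; further members and genes shown by library were chosen after their values were seen.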

Additional observations from a re-analysis of the deposited data

How the results depend on the processing

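The number of members called was 0, and it was 1 with scaling by library size alone, 1 with limma on log2(FPKM + 1), 1 with limma on log2(FPKM + 0.1) and 1 with a mean of at least 1 FPKM, in each case Adamts14, and 6 with DESeq2. It was 0 with each library left out. In those edgeR fits 5 to 10 of the 34 to 36 members tested had an unadjusted p under 0.05. So did 1898 to 3493 of the 15235 to 15335 genes tested. Over all genes 142 were called, 8 without a filter, 87 with edgeR's filterByExpr, 1767 with DESeq2 (41.4% of them higher, against 20.4% in the edgeR fit) and 0 to 7 with a library left out. Of the related genes 3 were called, 16 with DESeq2, 1 without a filter and 0 to 1 with a library left out. With the replicate block, 0 members, 1 gene in all and 0 related genes were called. In that edgeR fit 8 of 36 members and 2225 of all 15303 genes had an unadjusted p under 0.05. The labels tie same-numbered libraries by number alone. Their deviations correlated at -0.32, 0.114 and -0.104, against -0.242 to 0.278 for libraries of different numbers. These few values cannot decide whether such libraries were paired. Of 529 member values over 15 alternatives, 519 kept their side of the threshold and 10 gained a call, 6 of them with DESeq2 and 4 for Adamts14 elsewhere. The cause of these differences was not tested, apart from fewer samples or other genes entering the test. Precision is limited by 3 libraries a group and, for the 13 members not tested, by counts that reached 200 at most.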
